A study of Mus musculus with 16 samples.

Results

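Ccl2, Ccl7 and Ccl12 encode chemokines that attract monocytes, and Ccr2 encodes the receptor through which these chemokines act. Ccl8 encodes a chemokine that in mice binds Ccr8, and Ccl6 and Ccl9 encode chemokines that bind Ccr1. These 7 genes, of 24496 gene symbols in the count tables, were chosen by name and followed in myeloid cells sorted as CD45+ from tumors and spleens. All 7 were found. Macrophages were cells with at least 5 UMIs (unique molecular identifiers, 1 per captured RNA molecule) of C1qa, C1qb and C1qc together, and monocytes and dendritic cells were gated on UMIs of other genes, none of them a member. Of 17769 barcodes, 17668 passed the cell filter, and these held 2898 macrophages, 2822 monocytes and 496 dendritic cells.

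The study asked how loss of Aire, a regulator that drives self-antigen display in the thymus and so central tolerance, changes the response of a tumor to PD-1 blockade. Young adult female mice on a C57BL/6 background, either Aire+/+ or Aire-/-, carried subcutaneous tumors of MC38, a mouse colon adenocarcinoma line, and received an antibody against PD-1 or an isotype control. Tumors and spleens were taken on day 19. Aire-/- mice lack the gene in every cell from the germline on. Each of the 4 groups gave 1 CD45+ library from tumors and 1 from spleens, with cells of several mice pooled, so that no group has a replicate and no spread between mice can be given.

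Values over the 4 libraries of a tissue are listed with both Aire+/+ libraries before both Aire-/- libraries, and in each genotype the isotype library before the anti-PD1 library. The tumor libraries held 2930, 2208, 1856 and 2075 cells and 38930018, 28760725, 24639380 and 23282801 UMIs, with medians of 11892, 11858.5, 12251.5 and 9889 UMIs per cell. The spleen libraries were shallower, with 2095, 2088, 2023 and 2393 cells, 12131829, 10927395, 11179230 and 12618100 UMIs and medians of 4549, 4413.5, 4733 and 4502 UMIs per cell. Counts of Aire itself were 0, 2, 1 and 0 UMIs for tumors and 2, 5, 4 and 0 for spleens, too few in every genotype to check the label. Over the 28 pairs of these libraries, 3 to 16 barcodes were shared, which is 0.142% to 0.781% of the smaller library. No doublets were removed.

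Chemokines are small secreted proteins that guide leukocytes along gradients through G protein-coupled receptors. Ccr2 is required for classical, Ly6C-high monocytes to leave the bone marrow and to enter inflamed tissue or tumors, where they can become macrophages and dendritic cells. Its ligands are made by stromal, tumor and myeloid cells, and tumor macrophages are a known source.

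Marker sums describe the classes and are no check of the gates, since the macrophage, monocyte and dendritic lists hold genes that the gates use. Tumor macrophages numbered 1222, 817, 586 and 242 and carried 9 of 9 macrophage markers at a summed 16891.5, 19202, 14736 and 11048 counts per 1000000 UMIs of the class (CPM), led by C1qb. Tumor monocytes numbered 860, 575, 513 and 405 and carried 10 of 10 monocyte markers at 15629.8, 17797.5, 20276 and 23371 CPM, led by Lyz2. Tumor dendritic cells, 113, 89, 101 and 107 in number, carried 11 of 11 dendritic markers at 29641, 29620.3, 31217 and 32992 CPM, led by Cst3. Spleens held 15, 5, 5 and 6 macrophages, 178, 116, 109 and 66 monocytes and 32, 19, 18 and 17 dendritic cells. A class with under 30 cells in a library is given by UMIs alone, so that splenic macrophages have no level and splenic dendritic cells have one in the Aire+/+ isotype library only.

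Ccl2, the main ligand of Ccr2, was carried by macrophages and monocytes of every tumor. Its level in tumor macrophages was 2313, 1523, 1872 and 1598 CPM, with exact 95% Poisson intervals of 2292 to 2335, 1501 to 1544, 1844 to 1900.1 and 1552 to 1644. In tumor monocytes it was 2608, 2178, 2321 and 1815 CPM, with intervals of 2576 to 2639, 2144 to 2213, 2284 to 2359 and 1775 to 1856. Both classes had their highest value in the Aire+/+ isotype library, and the lowest stood in the Aire+/+ anti-PD1 library for macrophages and in the Aire-/- anti-PD1 library for monocytes. These intervals, like all others here, cover counting error only, and no difference between libraries has a replicate check. Tumor dendritic cells had far less, 63.6, 41.5, 18.0 and 106 CPM from 106, 58, 30 and 169 UMIs.

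Within each tumor library, Ccl2 was higher in monocytes than in macrophages. The log2 ratios of macrophages over monocytes were -0.17, -0.52, -0.31 and -0.18, each with a counting interval below 0. Cells that fell into no gate had 1543, 1449, 1716 and 1101 CPM, tumor T cells 172, 101, 54.1 and 23.8 and NK cells 2.97, 47.4, 18.8 and 7.26. T cells thus stood above dendritic cells in the first 3 libraries and below them in the Aire-/- anti-PD1 library, and dendritic and NK cells did not differ beyond counting error in the Aire+/+ anti-PD1 and Aire-/- isotype libraries. Macrophages held 59.2, 51.6, 50.7 and 34.4% of all Ccl2 UMIs of a tumor library and monocytes held 35.2, 40.6, 42.6 and 56.8%, of totals of 74903, 37578, 34411 and 13761 UMIs. Macrophages thus held the larger part in the first 3 libraries and monocytes in the Aire-/- anti-PD1 library, which had the fewest macrophages.

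Ccl7, a ligand of Ccr2 as well as of Ccr1 and Ccr3, was higher in macrophages than in monocytes. Macrophages had 1969.9, 1338, 1546 and 865 CPM, with intervals of 1950.1 to 1989.8, 1318 to 1359, 1521 to 1571 and 832 to 899, and monocytes 1108, 685, 633 and 202 CPM, with intervals of 1088 to 1129, 666 to 705, 613 to 653 and 189 to 216. The Aire-/- anti-PD1 library was lowest in both classes and the Aire+/+ isotype library was highest. The log2 ratio of macrophages over monocytes was 0.83, 0.97, 1.29 and 2.10, largest in the Aire-/- anti-PD1 library. Dendritic cells had 34.8, 9.31, 15.6 and 5.02 CPM from 58, 13, 26 and 8 UMIs, and 41 of the 58 UMIs in the Aire+/+ isotype library lay in 1 cell. Cells in no gate had 814, 902, 728 and 720.3 CPM, T cells 133, 32.3, 61.1 and 7.90 and NK cells at most 2.97 CPM. Macrophages held 73.6, 72.6, 73.8 and 65.3% of the Ccl7 UMIs of a tumor library, so that most of them lay in macrophages in each.

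Ccl12, a mouse chemokine close to Ccl2 that also binds Ccr2, was likewise higher in macrophages than in monocytes. Its level was 1502, 971, 1293 and 959.7 CPM in macrophages, where the intervals of the 2 anti-PD1 libraries, 954 to 988 and 925 to 996, overlapped. In monocytes it was 689, 336, 473 and 214 CPM, highest in the Aire+/+ isotype library and lowest in the Aire-/- anti-PD1 library. Macrophages over monocytes gave log2 ratios of 1.12, 1.53, 1.45 and 2.16. Dendritic cells had 3.60, 7.16, 7.82 and 82.3 CPM from 6, 10, 13 and 131 UMIs, and 1 cell held 125 of the 131 UMIs of the Aire-/- anti-PD1 library. Cells in no gate had 499, 571, 389.8 and 506 CPM, T cells 102, 19.2, 10.9 and 6.55 and NK cells 1.78, 8.46, 1.02 and 7.80. The dendritic level of the Aire-/- anti-PD1 library thus stands apart from the other 3 through 1 cell. Of all Ccl12 UMIs of a tumor library, 77.3, 78.6, 77.3 and 66.5% lay in macrophages.

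Ccl8 encodes a chemokine that in mice binds Ccr8, and few of its UMIs were found. Macrophages had 544, 336, 348 and 47 UMIs, or 28.4, 26.4, 37.3 and 15.9 CPM, with intervals of 26.0 to 30.8, 23.6 to 29.4, 33.5 to 41.5 and 11.7 to 21.1. The Aire-/- anti-PD1 library lay below the other 3, whose first 2 did not differ beyond counting error. Monocytes had 14, 83, 3 and 24 UMIs, or 1.39, 11.9, 0.476 and 5.57 CPM, and 60 of the 83 UMIs of the Aire+/+ anti-PD1 library and 23 of the 24 of the Aire-/- anti-PD1 library were in 1 cell each. No UMI was found in tumor dendritic cells, where a count of 0 allows up to 1.80, 2.15, 1.80 and 1.88 CPM. Macrophages held 93.0, 78.9, 95.9 and 51.1% of the Ccl8 UMIs of a tumor library, and T cells 17.4% in the Aire-/- anti-PD1 library.

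**Figure D1:**
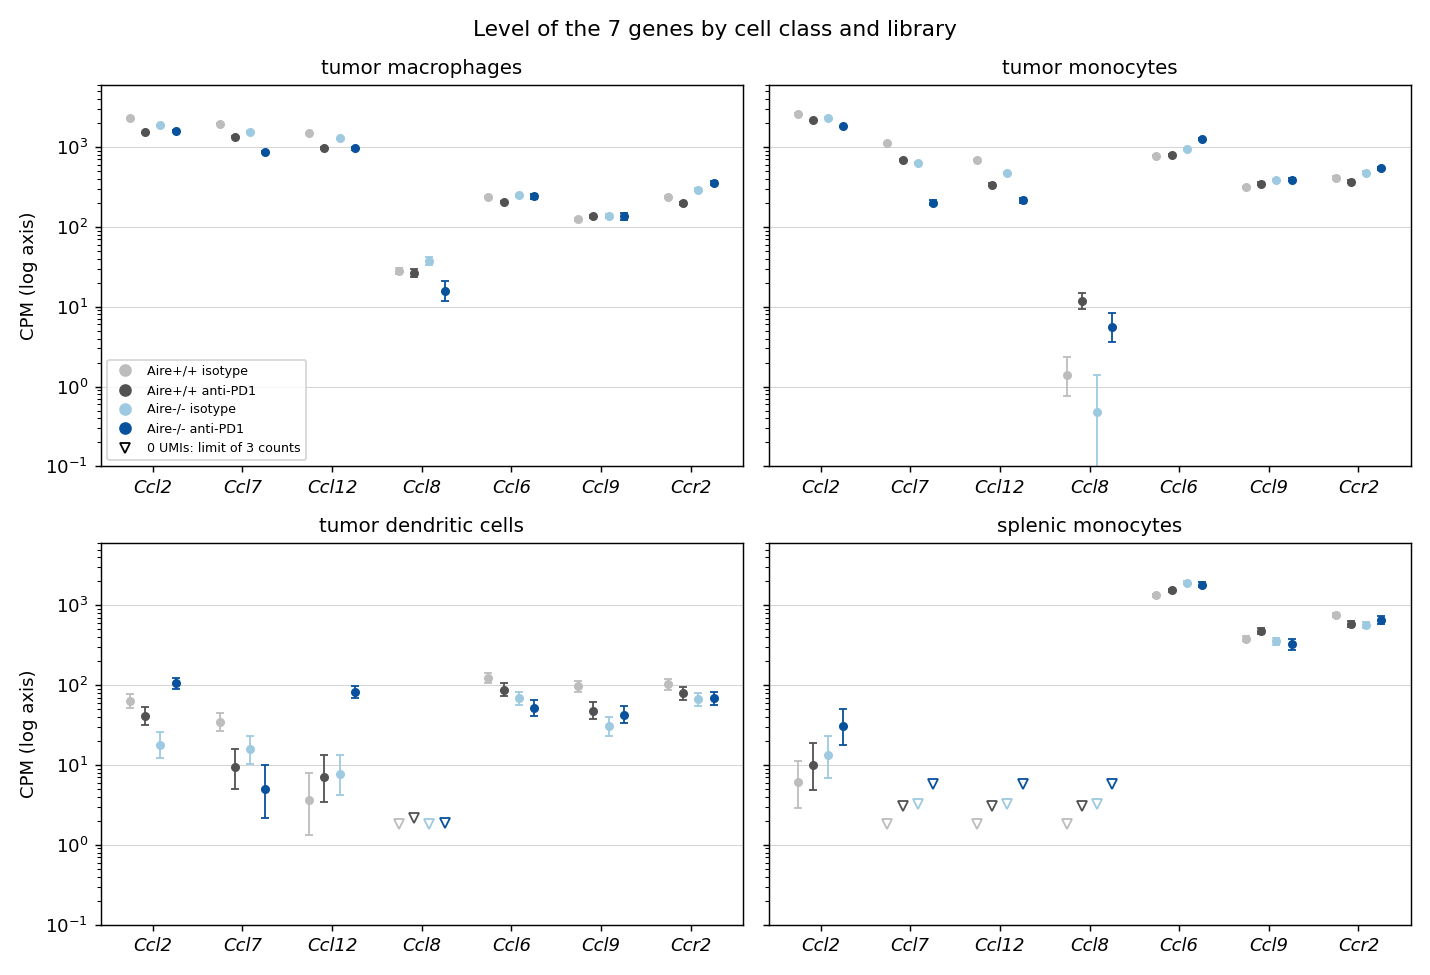
Level of each of the 7 genes in CPM on a log axis (vertical) in 4 cell classes, with 1 point per library and exact 95% Poisson intervals as bars; open triangles mark the limit that 0 UMIs allow. In tumor macrophages Ccl2 lies between 1523 and 2313 CPM, and in splenic monocytes between 6.08 and 31.1 CPM.

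Ccl6, a Ccr1 ligand known from myeloid cells, had the opposite order of classes, with more in monocytes than in macrophages. Monocytes had 780.2, 804, 940.0 and 1265 CPM, with intervals of 763 to 798, 783 to 825, 916 to 964 and 1232 to 1299, and the 2 Aire-/- libraries stood above the 2 Aire+/+ libraries, whose intervals overlapped. Macrophages had 239, 205, 250.3 and 242 CPM, with intervals of 232 to 246, 197 to 213, 240.2 to 261 and 225 to 260.4, so that the Aire+/+ anti-PD1 library lay below the other 3, which did not differ from one another beyond counting error. The log2 ratio of macrophages over monocytes was -1.71, -1.97, -1.91 and -2.39. Dendritic cells had 124, 88.1, 69.2 and 52.1 CPM, highest in the Aire+/+ isotype library and lowest in the Aire-/- anti-PD1 library. T cells had 31.2, 28.1, 18.9 and 7.17 CPM and NK cells 2.37, 11.9, 8.14 and 1.34. The few tumor neutrophils, 21, 25, 17 and 10 cells, held 264, 224, 53 and 182 Ccl6 UMIs, and cells in no gate had 323, 154, 265 and 2321 CPM, with the Aire-/- anti-PD1 library far above the rest.

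Ccl9, whose protein also binds Ccr1, shared that order. Monocytes had 314, 349, 388 and 389 CPM, and the 2 Aire-/- libraries, with intervals of 373 to 404 and 371 to 408, did not differ from each other beyond counting error and stood above both Aire+/+ libraries. Macrophages had 124, 135, 137 and 137 CPM, where the Aire+/+ isotype library was lowest and the other 3 had overlapping intervals, of which the last, 124 to 151, also overlapped that of the first, 119 to 129. The log2 ratio of macrophages over monocytes was -1.34, -1.37, -1.51 and -1.51. Dendritic cells had 97.2, 48.0, 30.7 and 42.7 CPM, highest in the Aire+/+ isotype library, where 59 of 162 UMIs lay in 1 cell. T cells had 25.4, 26.0, 12.95 and 10.5 CPM and NK cells 4.15, 9.03, 5.60 and 5.65, the lowest of the gated classes. Monocytes held 56.0, 62.2, 65.4 and 67.1% of the Ccl6 UMIs of a tumor library and 50.4, 53.0, 59.6 and 61.9% of its Ccl9 UMIs.

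Ccr2, the receptor, was highest in monocytes and was carried by macrophages, NK cells and T cells as well. Tumor monocytes had 416, 369, 478 and 540.0 CPM, with intervals of 403 to 428, 355 to 383, 461 to 495 and 518 to 562, and tumor macrophages 239, 196, 292 and 356 CPM, with intervals of 232 to 246, 189 to 204, 282 to 304 and 335 to 379. In both classes the order of the libraries was the same, with Aire+/+ anti-PD1 lowest, then Aire+/+ isotype, Aire-/- isotype and Aire-/- anti-PD1, and all neighbours differed beyond counting error. Macrophages over monocytes gave log2 ratios of -0.80, -0.91, -0.71 and -0.60. Dendritic cells had 103, 78.8, 66.2 and 68.5 CPM, highest in the Aire+/+ isotype library, and the last 3 libraries had overlapping intervals, of which that of the Aire+/+ anti-PD1 library, 64.7 to 94.9, reached that of the first, 87.8 to 119.

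Lymphocytes of the tumor carried Ccr2 too. T cells had 229, 174, 114 and 102 CPM and NK cells 229.6, 219, 193 and 162 CPM. Both classes were lowest in the Aire-/- anti-PD1 library. The T cell gate held 352, 380, 343 and 938 cells and was not split into CD4 and CD8 cells. Separately sorted tumor CD8+ cells had another order of libraries, given below, and the part of the T cell mix was not tested. In the Aire+/+ isotype library, the intervals of T cells (214 to 245), NK cells (207 to 254) and macrophages (232 to 246) overlapped. In the Aire+/+ anti-PD1 library NK cells and macrophages had overlapping intervals, 198 to 242 and 189 to 204, with T cells below. In both Aire-/- libraries the order was monocytes, macrophages, NK cells, T cells and dendritic cells, with no overlap. Monocytes led and dendritic cells came last among the gated classes with at least 30 cells in every tumor library. Macrophages held 42.6, 37.8, 38.6 and 19.98% and monocytes 39.1, 39.1, 42.7 and 44.0% of the Ccr2 UMIs of a tumor library, and T cells 8.01, 10.0, 6.25 and 18.6%.

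**Figure D2:**
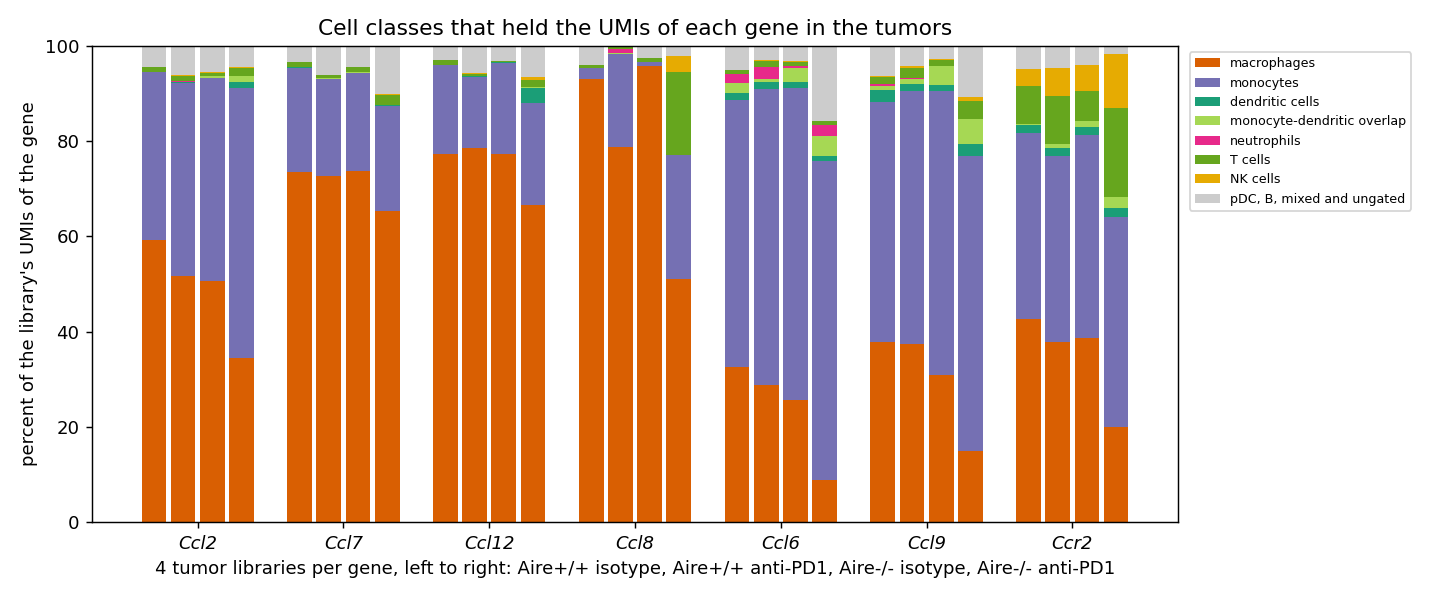
Percent of all UMIs of each gene in a tumor library (vertical axis, bars from 0 to 100) held by each cell class, with 4 bars per gene in the order of libraries used in the text. For Ccl7 the macrophage part runs from 65.3% to 73.8%, and for Ccl6 the monocyte part runs from 56.0% to 67.1%.

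Beside these totals, the share of cells with at least 1 UMI was taken after each cell was thinned to 2000 UMIs, since depth differed between classes. A Ccl2 UMI was found in 84.5, 80.5, 86.2 and 69.0% of tumor macrophages unthinned and in 69.8, 58.5, 63.5 and 48.3% after thinning, and in 78.1, 77.0, 82.1 and 77.0% and 63.8, 59.0, 68.0 and 61.5% of monocytes. Tumor T cells, which serve as a class that should lack these chemokines, gave 4.55, 2.37, 3.21 and 2.45% after thinning. The median depths were 14572.5, 14628, 14095.5 and 11362 UMIs in macrophages and 8620, 7778.5, 9199 and 8435.5 in T cells. Tumor dendritic cells gave 4.42, 6.74, 3.96 and 8.41%, with exact Clopper-Pearson intervals that overlapped those of the T cells in the first 3 libraries, where they are read as background, and not in the Aire-/- anti-PD1 library (3.92 to 15.4% against 1.56 to 3.66%). Shares of macrophages put the 2 anti-PD1 libraries in another order than CPM did, and no order is read from them. For Ccl7 the thinned shares were 53.5, 43.3, 46.1 and 24.0% in macrophages, 26.5, 19.5, 20.3 and 11.9% in monocytes and 2.56, 1.84, 3.79 and 2.35% in T cells, and the unthinned shares in macrophages were 69.2, 62.1, 65.2 and 35.5%.

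Ccl12 was found after thinning in 51.9, 41.4, 51.7 and 33.9% of macrophages and 26.0, 19.3, 23.8 and 14.1% of monocytes, from 74.5, 68.8, 76.5 and 54.1% and 45.1, 40.9, 43.7 and 29.9% before it. No T cell share is given for Ccl12, so that the background in these shares was not judged. The Ccl6 shares were 51.3, 48.9, 60.0 and 64.0% in monocytes and 2.84, 1.58, 0.875 and 0.853% in T cells after thinning. Ccr2 was found in 86.7, 86.3, 91.0 and 90.9% of tumor monocytes before and 48.8, 44.2, 52.6 and 57.0% after thinning, and in 68.8, 68.3, 74.9 and 71.1% and 31.1, 26.9, 38.7 and 40.1% of macrophages. Splenic B cells, which should lack Ccr2, gave 0.0727, 0, 0.0759 and 0% after thinning at median depths of 4230, 4162.5, 4464.5 and 4285 UMIs. These are cells of another tissue, and tumor B cells, 4, 5, 2 and 4 in number, were too few to give the background of Ccr2 in the tumor libraries. Thinning left out no tumor macrophage, monocyte, dendritic cell, T cell or B cell. Of the same splenic classes it left out 94 B cells, 31 T cells, 6 macrophages, 5 monocytes and 2 dendritic cells.

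The C1q limit divides macrophages from the cells just under it. Macrophages with 5 to 9 C1q UMIs (62, 53, 39 and 38 cells) had 2201, 1829, 2114 and 971 CPM of Ccl2, 1059, 549, 895 and 572 of Ccl7, 437, 239.9, 274 and 257 of Ccl6 and 395, 328, 341 and 363 of Ccr2. Monocytes with 1 to 4 C1q UMIs (167, 144, 135 and 66 cells) had 3268, 2231, 2360.0 and 1811 CPM of Ccl2, 1581, 687, 1063 and 264 of Ccl7, 511, 647, 898 and 789 of Ccl6 and 394, 352, 505 and 497 of Ccr2. Cells on both sides of the limit thus carried all 4 of these genes.

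Tumor macrophages with at least 10 UMIs of Cxcl9, an interferon-gamma target, were also taken on their own. These Cxcl9 macrophages had 1711, 1169.8, 1509.6 and 849.9 CPM of Ccl2, 1527, 1409, 1252 and 519.6 of Ccl7 and 182, 166, 269 and 305 of Ccr2. Ccl2 was thus lower in them than over all macrophages in each tumor library, and both Ccl2 and Ccl7 were lowest in the Aire-/- anti-PD1 library.

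Ly6c2, a marker of classical monocytes, split tumor monocytes at 3 UMIs. Ly6c2-high over Ly6c2-low monocytes gave log2 ratios of 0.85, 1.23, 0.61 and 0.59 for Ccl2, 0.57, 0.75, 1.04 and 1.03 for Ccl9 and 0.047, 0.22, 0.53 and 0.69 for Ccl6. For Ccl7 they were -0.14, 0.52, -0.19 and -0.85 and for Ccl12 0.20, 0.16, -0.43 and -1.04. Ccl7 and Ccl12 were thus lower in Ly6c2-high monocytes of both Aire-/- tumors, and Ccl7 in those of the Aire+/+ isotype tumor as well. Ccl2 and Ccl9 were higher in Ly6c2-high monocytes in every tumor. For Ccr2 they were 0.52, 0.56, 0.52 and 0.64 in tumors and 1.68, 2.15, 2.14 and 2.02 in spleens, so that the receptor was higher in Ly6c2-high monocytes of all 8 libraries. Mature dendritic cells of the tumors, which carry Ccr7 or Fscn1, held 4, 5, 5 and 1 Ccr2 UMIs in 46, 38, 58 and 63 cells. Type 2 dendritic cells of the Aire+/+ isotype tumor, 32 cells, had 296 CPM of Ccr2 and 351 CPM of Ccl6.

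The chemokine UMIs were unevenly spread over macrophages. The 10% of macrophages with the most Ccl2 held 43.7, 50.4, 47.1 and 58.1% of its UMIs, while the deepest 10% held 20.4, 19.5, 21.0 and 19.4% of all UMIs. For Ccl7 the top 10% held 51.1, 61.1, 58.4 and 83.5%, and for Ccl12 55.4, 61.5, 54.7 and 78.8%. Both were most concentrated in the Aire-/- anti-PD1 library, whose median macrophage had 0 UMIs of Ccl7 against 6 in the Aire+/+ isotype library. Ccl6 and Ccl9 were also concentrated, at 66.7, 67.5, 67.2 and 73.9% and 64.5, 58.6, 59.5 and 58.5%. Ccr2 was the most evenly spread of the 7 genes in every tumor library, at 38.3, 38.9, 37.3 and 36.6%. In tumor monocytes the top 10% of cells, 86, 58, 51 and 40 in number, held 78.7, 89.1, 83.0 and 93.6% of Ccl7 UMIs, so that few cells carried most of it, and 331 of 405 monocytes of the Aire-/- anti-PD1 library had 0.

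Pairs of genes were also counted in the same macrophages after thinning to 5000 UMIs, which left out 47, 28, 27 and 14 cells. Ccl6 and Ccl9 were found together 1.82, 1.37, 1.59 and 1.76 times as often as the product of their single shares. The ratio was 1.26, 1.38, 1.20 and 1.54 for Ccl7 with Ccl12 and 1.20, 1.29, 1.19 and 1.41 for Ccl2 with Ccl7. With Ccr2 the ratio was 0.999, 0.969, 0.969 and 1.05 for Ccl7, 1.04, 1.03, 1.02 and 1.10 for Ccl2, 1.20, 1.14, 1.16 and 1.16 for Ccl6 and 1.22, 1.14, 1.20 and 1.27 for Ccl9. Ccl6 and Ccl9 were thus found with the receptor more often than the product in each library, while Ccl7 lay on both sides of 1. The 3 pairs of ligands shared cells more often than the product in all 4 tumor libraries.

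The comparison of Aire-/- with Aire+/+ tumors under anti-PD1 asks how loss of Aire bears on the treated tumor. In macrophages Ccr2 was higher and Ccl7 lower in the Aire-/- library. In monocytes Ccl7 was 3.40-fold lower, and Ccl6 and Ccr2 were higher. Ccl2 stood close to level in macrophages and was somewhat lower in monocytes.

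In macrophages, the log2 ratio of Ccr2 was 0.86 (0.75 to 0.96), where parentheses give the conditional exact 95% counting interval. That of Ccl7 was -0.63 (-0.69 to -0.57). Over 11 alternative settings both kept their sign, but Ccr2 ran from 0.49 to 0.96 and Ccl7 from -0.95 to -0.28. Ccl8 had -0.73 (-1.21 to -0.29) on 47 against 336 UMIs, of which 28 and 63 lay in 1 cell each, and ran from -1.26 to -0.038 over 11 alternative settings. The Ccl2 ratio, 0.069 (0.023 to 0.12), was small, and its sign held in 9 of 11 alternative settings. Ccl12 and Ccl9, at -0.016 (-0.076 to 0.043) and 0.013 (-0.15 to 0.17), did not differ beyond counting error, and their signs held in 4 of 11 and 3 of 11 settings. Ccl6 had 0.24 (0.12 to 0.36) and turned to -0.22 at a C1q limit of 20 UMIs and to -0.16 with C1q ranges weighted equally. Its sign held in 8 of 11 settings, over which it ran from -0.37 to 0.38. No member was past 2-fold (a log2 ratio of at least 1 or at most -1 among genes with at least 50 UMIs over the pair), 0 of 7 beside 5.76% of all genes tested (533 of 9250), whose median log2 ratio was -0.072. Each member counted past 2-fold below has an interval that leaves out 0, or only a bound where a library had 0 UMIs. Such an interval was not asked of all genes.

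Within Cxcl9 macrophages, the same comparison gave -1.44 (-1.59 to -1.29) for Ccl7, -1.14 (-1.31 to -0.98) for Ccl12, -0.46 (-0.59 to -0.33) for Ccl2, -0.21 (-0.54 to 0.12) for Ccl6, -0.38 (-0.78 to -0.0005) for Ccl9, -0.27 (-0.93 to 0.35) for Ccl8 and 0.88 (0.62 to 1.13) for Ccr2. In the macrophages below that limit, 184 against 721 cells, it gave -0.42 (-0.49 to -0.36) for Ccl7, 0.24 (0.18 to 0.31) for Ccl12, 0.24 (0.19 to 0.29) for Ccl2, 0.40 (0.27 to 0.53) for Ccl6, 0.14 (-0.035 to 0.31) for Ccl9, -1.58 (-2.38 to -0.87) for Ccl8 and 0.90 (0.78 to 1.02) for Ccr2. Ccl7 and Ccl8 were thus lower and Ccr2 higher in the Aire-/- library in both sets of cells, while Ccl2, Ccl12, Ccl6 and Ccl9 had opposite signs in them, a difference that was not tested. The intervals of Ccl6 and Ccl8 in the first set and of Ccl9 in the second include 0.

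The macrophages of the libraries also differed in other ways. The 9 macrophage markers, summed at 16891.5, 19202, 14736 and 11048 CPM and led by C1qb at 4683, 4969.6, 4247 and 3340.1, were lowest in the Aire-/- anti-PD1 library, and the median C1q UMIs per macrophage were 127, 131, 111.5 and 57. The 10 monocyte markers, all detected, summed to 4919, 5417, 6939 and 8461 CPM, highest in that library. They were led by Lyz2 at 2021, 2024, 2329 and 3295 CPM. Csf1r, another of the 10, went the other way and was lowest there, at 476, 496, 469.6 and 398 CPM. The 11 dendritic markers, all detected and led by H2-Ab1, summed to 5284, 5616, 6672 and 7408 CPM. The 3 T cell markers summed to 48.2, 19.2, 68.1 and 217 CPM, the 3 NK markers to 1.98, 1.02, 4.83 and 16.2, and 3.76, 1.96, 5.63 and 11.6% of macrophages had at least 2 lymphoid UMIs. The macrophages had 177, 338, 569 and 850.3 CPM of Cxcl9 and 5595, 5013, 3904 and 3193 CPM of Fos, an immediate early gene that responds to dissociation. The part of these differences in the member ratios was not tested.

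In tumor monocytes under anti-PD1, Ccl7 had 202 CPM in the Aire-/- and 685 in the Aire+/+ library, a log2 ratio of -1.76 (-1.87 to -1.66). Over 7 alternative settings it ran from -1.90 to -1.34, and most Ccl7 UMIs lay in the top 10% of cells of both libraries. Ccl12 had -0.65 (-0.76 to -0.54) and Ccl2 -0.26 (-0.30 to -0.22), both lower in the Aire-/- library. Ccl6 had 0.65 (0.60 to 0.71), Ccr2 0.55 (0.47 to 0.63) and Ccl9 0.16 (0.067 to 0.25), all 3 higher. Ccl8 had -1.09 (-1.81 to -0.42), most of its UMIs lay in the 2 cells named above, and it ran from -5.79 to -0.92 over the settings, under 2-fold in 3 of them. Ccl7 and Ccl8 were thus past 2-fold and lower, 2 of 7, beside 4.02% of all genes tested (324 of 8064), with a median of -0.070.

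Ccl7 had a log2 ratio of -1.90 (-2.02 to -1.79) in Ly6c2-high monocytes and of -0.53 (-0.85 to -0.22) in Ly6c2-low monocytes, on 34 against 91 cells. Ccl2 had -0.34 (-0.38 to -0.30) in Ly6c2-high and 0.31 (0.13 to 0.48) in Ly6c2-low monocytes, and Ccl12 had -0.77 (-0.89 to -0.65) and 0.43 (0.12 to 0.74). The signs of both genes thus turned between the subsets, a difference that was not tested. The 10 monocyte markers of tumor monocytes, led by Lyz2, summed highest in the Aire-/- anti-PD1 library. Lyz2 had 7343, 8433, 10718 and 13373.5 CPM. Csf1r, another of the 10, went the other way, at 517, 502, 474 and 451 CPM. The 9 macrophage markers of these monocytes summed to 3280.1, 3841, 2826 and 2479.8 CPM, led by Apoe. Fos had 5119, 4700.2, 3463 and 3145 CPM there. Their part in the result was not tested.

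In tumor dendritic cells under anti-PD1, Ccl2 had 1.35 (0.92 to 1.81) and Ccl12 3.52 (2.60 to 4.62), both higher in the Aire-/- library. Single cells carried much of this. Of the Aire-/- anti-PD1 library, 1 cell held 125 of 131 Ccl12 UMIs and 1 cell held 77 of 169 Ccl2 UMIs, and with the top cell of each gene left out of each library the ratios were 0.064 for Ccl12 and 1.04 for Ccl2. With a dendritic marker limit of 4 UMIs in place of 2, they were -1.62 and -0.016. Ccl6 had -0.76 (-1.18 to -0.34) and went to 0.32 with cells thinned to 2000 UMIs and to -1.03 with the top cell left out, where it was past 2-fold in place of Ccl12. Ccl9 and Ccr2, at -0.17 (-0.68 to 0.34) and -0.20 (-0.60 to 0.19), did not differ beyond counting error, and with cells thinned to 2000 UMIs they turned to 0.96 and 0.27. Ccl2 and Ccl12 were past 2-fold, 2 of 5, beside 3.58% of all genes tested (190 of 5312), and Ccl7 and Ccl8 had under 50 UMIs over the pair.

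**Figure D3:**
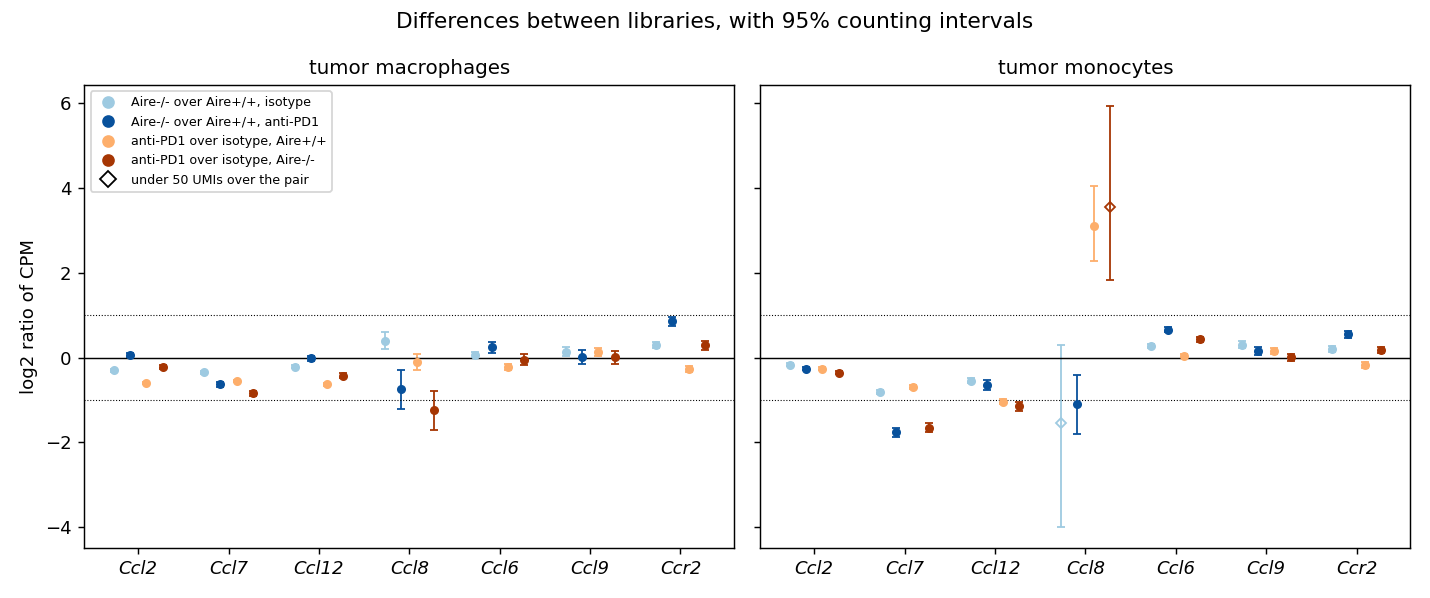
Log2 ratio of CPM (vertical axis) of each gene between libraries in tumor macrophages and tumor monocytes, with 95% counting intervals as bars, dotted lines at -1 and 1 and open diamonds for pairs with under 50 UMIs. Ccl7 in monocytes lies at -1.76 for Aire-/- over Aire+/+ under anti-PD1, and Ccr2 in macrophages at 0.86.

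Aire-/- over Aire+/+ under isotype puts the same question to tumors that did not receive the blocking antibody. Ccl2, Ccl7 and Ccl12 were lower in the Aire-/- library in both macrophages and monocytes. Ccr2 was higher in both. In macrophages the log2 ratios were -0.31 (-0.33 to -0.28) for Ccl2, -0.35 (-0.38 to -0.32) for Ccl7, -0.22 (-0.25 to -0.19) for Ccl12 and 0.29 (0.22 to 0.36) for Ccr2. Ccl8 and Ccl9 had 0.40 (0.20 to 0.59) and 0.14 (0.039 to 0.24), the former with 1.21, past 2-fold, with the top 1% of cells left out and the latter with -0.079 at a C1q limit of 20 UMIs. Ccl6, at 0.066 (-0.0067 to 0.14), did not differ beyond counting error. None was past 2-fold, 0 of 7, beside 2.37% of all genes tested (239 of 10087, median -0.045).

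In tumor monocytes under isotype, Ccl7 had -0.81 (-0.86 to -0.76), Ccl12 -0.54 (-0.60 to -0.48) and Ccl2 -0.17 (-0.20 to -0.14). Higher in the Aire-/- library were Ccl9, at 0.31 (0.23 to 0.38), Ccl6, at 0.27 (0.22 to 0.32), and Ccr2, at 0.20 (0.13 to 0.27). Ccl8, with 3 against 14 UMIs, was under 50 UMIs and its ratio was -1.54 (-3.98 to 0.30). The count past 2-fold was 0 of 6, beside 2.37% of all genes tested (206 of 8683, median -0.066). The signs of these 6 genes held in each of 7 alternative settings.

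Dendritic cells under isotype had less of 5 members in the Aire-/- library, and Ccl12 and Ccl8 had under 50 UMIs over the pair. Ccl2 had -1.82 (-2.45 to -1.22), Ccl9 -1.66 (-2.15 to -1.20) and Ccl7 -1.15 (-1.88 to -0.46), and these 3 were past 2-fold, 3 of 5, beside 2.83% of all genes tested (161 of 5682). Ccl6 had -0.84 (-1.18 to -0.50) and Ccr2 -0.63 (-0.99 to -0.28). The share of dendritic cells with Ccl2 was read as background in both of these libraries, so that the Ccl2 ratio may not describe dendritic cells. In CPM, dendritic Ccl7 stood below T cells, the class that should lack these chemokines, in both libraries. The Ccl7 ratio thus has the same limit. Single cells weighed here too, since 1 cell of the Aire+/+ isotype library held 41 of 106 Ccl2 UMIs, 1 held 41 of 58 Ccl7 UMIs and 1 held 59 of 162 Ccl9 UMIs. With the top cell left out the ratios were -1.56 for Ccl2, -0.92 for Ccl7 and -1.40 for Ccl9, so that Ccl7 no longer reached 2-fold, while Ccl6 did, at -1.15. The signs of the 5 held in each alternative setting that gave a value, but sizes did not, with ranges of -3.48 to -0.73 for Ccl7 and -3.17 to -1.13 for Ccl2. Mature cells, with almost no Ccr2, were 46 of 113 dendritic cells in the Aire+/+ and 58 of 101 in the Aire-/- library, type 2 cells were 32 and 24, and the part of this mix was not tested. Macrophage markers of these dendritic cells, 9 of 9 detected, summed to 125, 96.7, 78.8 and 81.7 CPM over the 4 libraries, and their part in the result was not tested.

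Anti-PD1 over isotype in Aire+/+ mice compares treated with control tumors where central tolerance is intact. Macrophages of the treated tumor had less Ccl2, Ccl7 and Ccl12, by similar ratios. These were -0.60 (-0.63 to -0.58), -0.56 (-0.58 to -0.53) and -0.63 (-0.66 to -0.60), and their signs held in each of 11 alternative settings. Ccr2 and Ccl6 were lower as well, at -0.28 (-0.35 to -0.21) and -0.22 (-0.29 to -0.15), and Ccl9 was higher, at 0.13 (0.037 to 0.22). Ccl8, at -0.10 (-0.30 to 0.10), did not differ beyond counting error. No member was past 2-fold, 0 of 7, beside 1.28% of all genes tested (131 of 10214, median -0.025).

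Tumor monocytes of Aire+/+ mice had less Ccl12, Ccl7, Ccl2 and Ccr2 under anti-PD1. The ratios were -1.04 (-1.11 to -0.97) for Ccl12, -0.69 (-0.74 to -0.64) for Ccl7, -0.26 (-0.29 to -0.23) for Ccl2 and -0.17 (-0.24 to -0.10) for Ccr2. Ccl9 had 0.15 (0.076 to 0.23) and Ccl6 0.043 (-0.0069 to 0.092). Ccl8 had 3.10 (2.27 to 4.03), and 60 of the 83 UMIs behind its higher level were in 1 cell. Ccl12 was past 2-fold and lower and Ccl8 past 2-fold and higher, 2 of 7, beside 0.704% of all genes tested (62 of 8812, median -0.016). Ccl12 had -0.79 as a mean of per-cell CPM and -0.88 with a Lyz2 limit of 20 UMIs.

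In Aire+/+ dendritic cells, Ccl7 had -1.90 (-2.90 to -1.02) on 13 against 58 UMIs and Ccl9 -1.02 (-1.45 to -0.60). These were past 2-fold, 2 of 5, beside 1.58% of all genes tested (86 of 5445). The isotype library is the one in which 41 of 58 Ccl7 and 59 of 162 Ccl9 UMIs lay in 1 cell each. With the top cell per gene left out of tumor dendritic cells, the log2 ratio of Ccl9 was -0.63 and no longer reached 2-fold, and Ccl7 was left with under 50 UMIs over the pair. Ccl2 had -0.62 (-1.10 to -0.14), which turned to 0.48 with cells thinned to 2000 UMIs, Ccl6 had -0.49 (-0.82 to -0.16) and Ccr2 -0.38 (-0.74 to -0.028). All 5 were thus lower in the treated tumor, and Ccl12 and Ccl8 had under 50 UMIs over the pair. However, the dendritic Ccl2 share was read as background in both libraries, and dendritic Ccl7 stood below T cells in CPM in both. The Ccl2 and Ccl7 ratios may thus not describe dendritic cells.

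In Aire-/- mice, anti-PD1 over isotype makes the same comparison where Aire is absent. Ccl7 and Ccl12 were lower in treated macrophages and monocytes, past 2-fold in monocytes. Ccr2 was higher in both classes, where it was lower in Aire+/+ mice, a difference between genotypes that was not tested. Macrophages had -0.84 (-0.90 to -0.78) for Ccl7, -0.43 (-0.49 to -0.37) for Ccl12, -0.23 (-0.28 to -0.18) for Ccl2, 0.29 (0.18 to 0.39) for Ccr2 and -1.23 (-1.71 to -0.79) for Ccl8. Ccl6 and Ccl9, at -0.048 (-0.17 to 0.073) and 0.0016 (-0.16 to 0.16), did not differ beyond counting error. Only Ccl8 was past 2-fold, 1 of 7, on 47 against 348 UMIs, beside 2.66% of all genes tested (235 of 8827, median -0.049). Of the Ccl8 UMIs of the 2 libraries, 28 and 46 lay in 1 cell each, and the Ccl8 ratio ran from -2.63 to -1.05 over 11 alternative settings.

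Tumor monocytes of Aire-/- mice had -1.65 (-1.76 to -1.54) for Ccl7, -1.14 (-1.25 to -1.04) for Ccl12 and -0.35 (-0.39 to -0.31) for Ccl2. Ccl6 had 0.43 (0.38 to 0.48) and Ccr2 0.18 (0.10 to 0.25), both higher in the treated tumor, and Ccl9, at 0.0046 (-0.086 to 0.095), did not differ beyond counting error. Ccl8 had 24 against 3 UMIs, under 50 over the pair, and 23 of the 24 were in 1 cell. Ccl7 and Ccl12 were past 2-fold and lower, 2 of 6, beside 1.31% of all genes tested (102 of 7810, median -0.034).

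Aire-/- dendritic cells had more Ccl2 under anti-PD1, at 2.56 (1.99 to 3.17), and its sign held in 6 of 6 alternative settings. With the top cell left out it was 2.12, and 1 cell held 77 of the 169 Ccl2 UMIs of the treated library. The dendritic Ccl2 share was read as background in the isotype library, so that the size of this ratio may not describe dendritic cells. Ccl12 had 3.40 (2.57 to 4.34), which turned to -0.36 with the top cell left out. These were past 2-fold, 2 of 5, beside 1.82% of all genes tested (101 of 5538). Ccl9 had 0.48 (-0.068 to 1.03), Ccl6 -0.41 (-0.83 to 0.012) and Ccr2 0.049 (-0.35 to 0.44), none beyond counting error, and Ccl7 and Ccl8 had under 50 UMIs over the pair. The 4 comparisons of tumor libraries share libraries with one another in pairs, so that each library enters 2 of them.

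Splenic monocytes had Ccr2, Ccl6 and Ccl9 at high levels and almost none of Ccl2, Ccl7, Ccl12 and Ccl8. Ccl2 had 10, 10, 12 and 16 UMIs, or 6.08, 10.1, 13.2 and 31.1 CPM, with intervals of 2.91 to 11.2, 4.85 to 18.6, 6.80 to 23.0 and 17.8 to 50.6. Ccl7, Ccl12 and Ccl8 had 0 UMIs in every spleen library, which allows up to 1.82, 3.04, 3.29 and 5.84 CPM in monocytes. Ccl6 had 1332, 1540.4, 1927 and 1812 CPM, higher in the Aire-/- libraries. Ccl9 had 383, 478, 353 and 323 CPM, highest in the Aire+/+ anti-PD1 library, and the other 3 had intervals of 354 to 414, 316 to 394 and 276 to 376. Ccr2 had 765, 589, 570.4 and 658 CPM, highest in the Aire+/+ isotype library, and the other 3 had overlapping intervals.

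Splenic NK cells had 233, 254, 189 and 288 CPM of Ccr2, splenic T cells 82.4, 31.7, 58.6 and 66.4 and splenic B cells 1.96, 0.146, 2.92 and 0. Monocytes thus led the gated classes with at least 30 cells in each spleen, as in the tumors. Splenic dendritic cells of the Aire+/+ isotype library had 134 CPM of Ccr2 and 146 CPM of Ccl6.

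Between groups, ratios of splenic monocytes stayed within 2-fold for every member with at least 50 UMIs over the pair. For Aire-/- over Aire+/+, Ccl6 had 0.23 (0.12 to 0.35) under anti-PD1 and 0.53 (0.44 to 0.62) under isotype, Ccl9 had -0.56 (-0.83 to -0.31) and -0.12 (-0.32 to 0.078), and Ccr2 had 0.16 (-0.038 to 0.36) and -0.42 (-0.57 to -0.27). Only 3 members reached 50 UMIs over each pair, and 0 of 3 were past 2-fold, beside 1.80% of all genes tested under anti-PD1 and 1.09% under isotype. For anti-PD1 over isotype, Ccr2 had -0.38 (-0.52 to -0.23) in Aire+/+ and 0.21 (0.0038 to 0.41) in Aire-/- mice, the latter with -0.13 after thinning to 2000 UMIs. Ccl6 had 0.21 (0.11 to 0.30) and -0.089 (-0.21 to 0.026), and Ccl9 0.32 (0.14 to 0.49) and -0.13 (-0.41 to 0.15). Again 0 of 3 were past 2-fold, beside 0.995% of all genes tested in Aire+/+ and 1.12% in Aire-/- mice.

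Tumor against spleen, the Ccr2 ligands set the monocytes of the tissues apart. Ccl2 was 429, 215, 176 and 58.3-fold higher in tumor monocytes over the 4 groups, with log2 ratios of 8.75 (7.87 to 9.81), 7.75 (6.87 to 8.81), 7.46 (6.66 to 8.41) and 5.87 (5.16 to 6.67). Ccl7, with 0 UMIs in the spleens, was at least 608, 226, 192 and 34.6-fold higher, and Ccl12 at least 378, 111, 144 and 36.7-fold, both against a floor of 3 counts per library. Ccr2 and Ccl6 were lower in tumor monocytes, at log2 ratios of -0.88, -0.67, -0.26 and -0.28 and -0.77, -0.94, -1.04 and -0.52. All genes tested had medians of -0.32, -0.30, -0.33 and -0.30, so that the Ccr2 ratios of both Aire-/- pairs lie close to the shift of all genes. Ccl9 had -0.29, -0.45, 0.14 and 0.27, the first close to that shift as well, with an interval that includes 0 in the Aire-/- isotype pair.

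The members past 2-fold between tumor and spleen monocytes were 3 of 6, 4 of 7, 4 of 6 and 3 of 6, beside 27.9%, 29.0%, 30.6% and 30.8% of all genes tested. Ccl2, Ccl7 and Ccl12 were among them in each pair, with Ccl8, at least 3.90-fold higher, in the Aire+/+ anti-PD1 pair, where 60 of its 83 UMIs lay in 1 cell, and Ccl6, lower, in the Aire-/- isotype pair. In dendritic cells of the Aire+/+ isotype pair, Ccl2 had 4.68 (2.17 to 10.00) on 106 against 1 UMI, Ccl7 was at least 4.68-fold higher, and these were past 2-fold, 2 of 5, beside 21.6% of all genes tested (988 of 4575). The tumor share of dendritic cells with Ccl2 was read as background, and 41 of the 58 Ccl7 UMIs lay in 1 cell, so that neither call is read as a result of dendritic cells. Ccl9 there had 0.97 (0.30 to 1.72), Ccl6 -0.24 (-0.67 to 0.20) and Ccr2 -0.38 (-0.83 to 0.085). Tumors were dissociated with enzymes and spleens mechanically, and Fos had 427, 332, 292 and 494 CPM in splenic against 5119, 4700.2, 3463 and 3145 CPM in tumor monocytes, so that tissue and dissociation cannot be told apart.

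Other genes of the chemokine system moved in both directions in Aire-/- over Aire+/+ macrophages under anti-PD1. Of 25 other chemokines, 14 could be tested and 3 were past 2-fold and higher and 4 lower, with a median log2 ratio of -0.28. Ccl5, which attracts T cells, had 2054 against 712 CPM (1.53), and Cxcl2, which attracts neutrophils, 2324 against 3227 CPM (-0.47). Of 19 other chemokine receptors, 9 could be tested, and Ccr7 and Cxcr6 were past 2-fold and higher (median -0.092). Ccr1, the receptor of Ccl6 and Ccl9, had 379.7 against 342 CPM (0.15). Ccl5 and Cxcr6 are also lymphocyte genes, and T cell markers of these macrophages were 217 against 19.2 CPM, with at least 2 lymphoid UMIs in 11.6 against 1.96% of cells. Their part in these ratios was not tested.

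In the same macrophages, 4 of 9 monocyte genes were past 2-fold and higher (median 0.59), among them Plac8, and 4 of 8 mature macrophage genes were lower (median -0.94), among them Apoe and Folr2. Of 10 genes of the interferon-gamma response, 7 were higher (median 1.40). None of 8 genes of the NF-kB response, which controls Ccl2 in many cells, was past 2-fold (median 0.056). Of 9 genes of the dissociation response, Hspa1a and Hspa1b, which encode heat shock proteins, were lower (median -0.56). All genes tested had the median and the share past 2-fold given above for this comparison.

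Under isotype, where 2.37% of all genes tested were past 2-fold, Aire-/- over Aire+/+ macrophages gave 4 higher and 4 lower of 17 (median -0.26) for the other chemokines, 1 higher and 0 lower of 9 (median 0.046) for receptors and 2 higher and 0 lower of 9 (median 0.49) for monocyte genes. Mature macrophage genes gave 0 higher and 0 lower of 8 (median -0.27), interferon-gamma genes 6 higher and 0 lower of 10 (median 1.06), NF-kB genes 1 higher and 0 lower of 9 (median 0.22) and dissociation genes 1 higher and 0 lower of 9 (median 0.013). Interferon-gamma genes thus had the highest median of the 7 lists under both antibodies. In Aire+/+ macrophages, anti-PD1 over isotype had 1.28% of all genes tested past 2-fold, and the other chemokines gave 2 higher and 3 lower of 16 (median -0.12) and receptors 0 higher and 1 lower of 9 (median 0.027), and the remaining 5 lists had medians between -0.044 and 0.18 with 1 gene, Hspa1b, past 2-fold. In Aire-/- macrophages the same comparison, with 2.66% of all genes tested past 2-fold, gave 1 higher and 4 lower of 14 (median -0.23) for the other chemokines and 2 higher and 0 lower of 9 (median -0.16) for receptors. Monocyte genes gave 0 higher and 0 lower of 9 (median 0.18), mature macrophage genes 0 higher and 1 lower of 8 (median -0.33), interferon-gamma genes 1 higher and 0 lower of 10 (median 0.35), NF-kB genes 0 higher and 0 lower of 9 (median 0.11) and dissociation genes 0 higher and 1 lower of 9 (median -0.29).

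Tumor monocytes had fewer testable chemokines. Of all genes tested in them, 4.02% were past 2-fold for Aire-/- over Aire+/+ under anti-PD1 and 2.37% under isotype, and 0.704% for anti-PD1 over isotype in Aire+/+ and 1.31% in Aire-/- mice. For Aire-/- over Aire+/+ under anti-PD1, the other chemokines gave 1 higher and 3 lower of 10 (median -0.31), receptors 0 higher and 0 lower of 5 (median -0.25), monocyte genes 0 higher and 0 lower of 9 (median 0.51) and mature macrophage genes 0 higher and 1 lower of 7 (median -0.74). Interferon-gamma genes gave 6 higher and 0 lower of 10 (median 1.11), NF-kB genes 1 higher and 0 lower of 9 (median 0.27) and dissociation genes 0 higher and 1 lower of 9 (median -0.37). Cxcl9 was the chemokine past 2-fold and higher, and Cxcl1, Cxcl3 and Pf4 were lower. Interferon-gamma genes again had the highest median of the 7 lists. Under isotype the other chemokines of monocytes gave 1 higher and 3 lower of 11 (median -0.30) and receptors 0 higher and 0 lower of 6 (median -0.26). For anti-PD1 over isotype, the other chemokines gave 0 higher and 2 lower of 11 (median -0.24) in Aire+/+ and 0 higher and 3 lower of 10 (median -0.32) in Aire-/- monocytes, and receptors 0 higher and 1 lower of 6 (median -0.072) and 0 higher and 0 lower of 5 (median -0.25).

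Patterns over cell classes were compared by Pearson's r of log2(CPM + 10) over 37 points, each a class of a library with at least 30 cells, among 5578 genes. Points share libraries and differ in depth, and r is a description. The genes most like Ccl2 were Slfn4 (0.984), Cd14 (0.979), Cxcl2 (0.976), Ier3 (0.974) and Trem1 (0.965). Among those most like Ccl7 were C3ar1 (0.993), Stab1 (0.982), Ccl12 (0.968) and Pdpn (0.964), and among those most like Ccl12 were Stab1 (0.975), C3ar1 (0.970), Ccl7 (0.968) and Ccl2 (0.959). These 2 members are thus in each other's lists. Ccl6 was most like Gm9733 (0.981), Msrb1 (0.979), Cebpd (0.969), Igsf6 (0.967) and Csf1r (0.967), and Ccl9 like Cd302 (0.974), Msrb1 (0.969), Nupr1 (0.969), Cebpd (0.968) and Gm21188 (0.967). For Ccr2 the genes were Xdh (0.938), Capn2 (0.936), Ahnak (0.931), Dbi (0.928) and Ppt2 (0.924). Ccl8 did not reach the minimum for this comparison.

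Among members, Ccl6 and Ccl9 had r of 0.956 and Ccl2 and Ccl7 of 0.955, while Ccl2 with Ccl6 had 0.589. Ccr2 had 0.697 with Ccl9, 0.672 with Ccl6 and 0.369 with Ccl7. Ccl7, which binds both receptors, had 0.572 with Ccl9 and 0.482 with Ccl6. Ccl2 and Ccl7 thus went together over these points, as did Ccl6 and Ccl9.

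The 6 chemokine genes lie on chromosome 11 in 2 groups. On build GRCm38, Ccl2 lies at chr11:82035577-82037452, Ccl7 at chr11:82045712-82047525, Ccl12 at chr11:82101845-82103399 and Ccl8 at chr11:82115185-82116799, with 8259, 54319 and 11785 bases between neighbours in that order. Ccl9, at chr11:83572917-83578636, follows Ccl8 after 1456117 bases, and Ccl6, at chr11:83587886-83593087, lies 9249 bases further. Ccr2 lies at chr9:124101918-124109140. In each tumor library, every gene of the first group had a higher ratio of macrophages over monocytes than either gene of the second.

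Promoters of pairs that were high in the same class, monocytes for Ccl6 and Ccl9 and macrophages for Ccl12 and Ccl8, are shown, from 250 bases before to 50 after the gene start, as RefSeq gives them on GRCm38.p6. Sequences matched 5 of the 7 members, without Ccl2 and Ccl7. Those of Ccl6 (chr11:83593038-83593337, minus strand), Ccl9 (chr11:83578587-83578886, minus strand), Ccl12 (chr11:82101595-82101894, plus strand) and Ccl8 (chr11:82114935-82115234, plus strand) run 5′ to 3′, and capitals mark the longest run of bases that the 2 genes of a pair share, Ccl6 with Ccl9 and Ccl12 with Ccl8.
Ccl6: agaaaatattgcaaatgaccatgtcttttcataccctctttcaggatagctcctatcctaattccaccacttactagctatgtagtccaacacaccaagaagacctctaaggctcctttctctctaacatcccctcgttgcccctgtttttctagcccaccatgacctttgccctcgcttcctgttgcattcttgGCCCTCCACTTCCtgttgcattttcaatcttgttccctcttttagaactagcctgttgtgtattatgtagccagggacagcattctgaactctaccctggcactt
Ccl9: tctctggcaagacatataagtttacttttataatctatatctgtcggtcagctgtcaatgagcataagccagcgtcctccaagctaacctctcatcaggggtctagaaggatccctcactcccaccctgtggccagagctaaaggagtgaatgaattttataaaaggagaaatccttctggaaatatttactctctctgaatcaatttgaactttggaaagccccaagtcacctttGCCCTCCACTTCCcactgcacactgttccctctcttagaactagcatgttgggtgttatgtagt
Ccl12: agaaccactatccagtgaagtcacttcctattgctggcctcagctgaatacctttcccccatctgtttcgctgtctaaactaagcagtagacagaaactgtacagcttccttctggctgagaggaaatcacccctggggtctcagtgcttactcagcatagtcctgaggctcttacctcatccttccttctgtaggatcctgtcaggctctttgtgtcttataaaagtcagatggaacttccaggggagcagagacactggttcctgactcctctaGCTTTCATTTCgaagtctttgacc
Ccl8: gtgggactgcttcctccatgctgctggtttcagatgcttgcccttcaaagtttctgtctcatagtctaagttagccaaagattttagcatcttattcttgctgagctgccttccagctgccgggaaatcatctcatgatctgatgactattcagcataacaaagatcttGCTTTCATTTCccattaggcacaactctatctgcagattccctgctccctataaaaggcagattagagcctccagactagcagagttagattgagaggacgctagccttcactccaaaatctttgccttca
The run of Ccl6 and Ccl9 has 13 bases and is found in 3 of 32851 promoters of this length on the gene's strand. That of Ccl12 and Ccl8 has 11 bases and is found in 13. Both counts include the promoters of the pair in which the run was found, and runs of other pairs were not compared. The letters TATAAA, a common core promoter element, were searched on both strands, like the other motifs below. They matched 1 time in Ccl12, 1 in Ccl8, 3 in Ccl9 and 0 in Ccl6 and in Ccr2, and are found in 13.6% of promoters. GAGGAA, the core of PU.1 motifs, matched 1 time in Ccl12 and in Ccl8 and 0 times in the other 3 (28.3% of promoters). TGANTCA, an AP-1 motif where N is any base, matched 1 time in Ccl9 alone (7.81%), and TTCNNNGAA, a STAT motif, in none of the 5 (8.30%). A match describes the letters and names no site.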

How the data were processed

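The authors deposited UMI counts per gene and barcode, made with Cell Ranger and not normalized, and kept only barcodes that were called as cells. Cells of several mice were pooled per library. The genome build is GRCm38 per the submitters' processing notes. The tables held 25127 rows, and rows that share a symbol were summed to 24496 symbols. The 8 CD45+ libraries were used, with 1 library per group.

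Cells with at least 200 genes and at most 20% mitochondrial UMIs were kept, and no doublets were removed. Each cell took the first class that fits on summed UMIs. Macrophages had at least 5 UMIs of C1qa, C1qb and C1qc, and plasmacytoid dendritic cells at least 3 of Siglech. T, B and NK cells had at least 2 of their lineage markers, with cells that met the B and another limit left out. Neutrophils had at least 20 of S100a8 and S100a9 and at most 1 of Csf1r. Dendritic cells had at least 10 of H2-Aa, H2-Ab1 and H2-Eb1 and at least 2 of Flt3, Zbtb46, Clec9a, Xcr1, Cd209a, Ccr7 and Fscn1, and those with at least 20 of Lyz2 and 2 of Csf1r were left out as overlap. Monocytes had at least 5 of Lyz2 and 2 of Csf1r and Ly6c2. Mature dendritic cells had at least 3 of Ccr7 and Fscn1, and type 2 at least 2 of Cd209a, Clec4a4 and Clec10a.

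A count of 0 was set to 3 in ratios. Classes with under 30 cells and genes with under 50 UMIs over a pair were left out of counts past 2-fold. Thinning used seed 1. No test was made, since no group has a replicate. Similar genes had at least 200 UMIs and 50 CPM in 1 class of 1 library, and 10 CPM were added before logs.

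Lists were other chemokines, chemokine receptors, monocyte genes, mature macrophage genes, interferon-gamma response, NF-kB response and dissociation response. All 7 members are named, of a list at most 4 genes of highest mean CPM or past 2-fold, and the 5 most similar genes per member. Results of some genes are not reported here. Members and lists were chosen with earlier results of these data known. Alternatives changed the limits of C1q, Lyz2, Ly6c2, dendritic markers and UMIs, the cell filter, lymphoid and very deep cells, the denominator, the mean, the depth, the top cells and the weight of subsets. The code was tested on simulated data. The scripts ran on Python 3.11.15, numpy 2.4.6, scipy 1.17.1 and matplotlib 3.10.9.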

Additional observations from a re-analysis of the deposited data

Results flagged for a closer look

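CD8+ libraries of the same tissues were not used in the comparisons, yet they held UMIs of these genes. The order of groups is that of the report. Ccr2 had 25.5, 34.7, 31.1 and 51.0 CPM in tumor and 15.0, 13.5, 28.8 and 33.4 CPM in spleen CD8+ libraries. In tumor CD8+ libraries it was thus highest in the Aire-/- anti-PD1 group, where T cells of the CD45+ libraries had their lowest level. This difference was not tested. The 6 chemokines summed to 65.8, 89.3, 168 and 55.5 CPM in tumor and 2.93, 2.35, 2.12 and 2.03 CPM in spleen CD8+ libraries. The tumor CD8+ libraries also held 2381, 2665, 3766 and 1531 C1q UMIs. Which cells carried these UMIs was not tested.

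Some log2 ratios had opposite signs in comparisons that differ by antibody or genotype. For Aire-/- over Aire+/+ in tumor macrophages, Ccl2 had 0.069 under anti-PD1 and -0.31 under isotype, and Ccl8 had -0.73 and 0.40. The same comparison of Ccl2 in tumor dendritic cells gave 1.35 and -1.82. For anti-PD1 over isotype, Ccr2 had 0.29 in Aire-/- and -0.28 in Aire+/+ macrophages, 0.18 and -0.17 in tumor monocytes and 0.21 and -0.38 in splenic monocytes. Ccl2 in tumor dendritic cells had 2.56 in Aire-/- and -0.62 in Aire+/+ mice. The share of dendritic cells with Ccl2 was read as background in each library but the Aire-/- anti-PD1 library. In the Ccl8 ratio of -0.73, 28 of 47 UMIs of the Aire-/- library lay in 1 cell. The difference between these pairs of ratios was not tested.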

How the results depend on the processing

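Each group has 1 library of pooled cells, so that intervals cover counting error only and no spread between mice is known. No paired analysis was possible because no mouse or sample links the libraries of different groups. Macrophages were gated on C1q alone and dendritic cells were few. Genotype, library depth and the mix of cells in a gate could not be separated. Alternative settings gave 750 log2 ratios for 96 values, of which 536 stayed within the counting interval or close to the value, 208 moved and 6 reversed, where reversed means a change of sign of a ratio of at least 2-fold whose interval leaves out 0. Counted without that condition, among members with at least 50 UMIs, 52 of 692 had the other sign, and 66 of 86 ratios kept every sign. Those that did not lie in tumor macrophages (Ccl2, Ccl12, Ccl6, Ccl9 and Ccl8), tumor monocytes (Ccl9), splenic monocytes (Ccr2) and tumor dendritic cells (5 genes). The 2 settings that left out the top cell per gene in dendritic cells and that weighted C1q ranges equally were chosen after the data were seen, as were the macrophages below the Cxcl9 limit.

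The 6 reversed values, by this definition, lie in tumor dendritic cells. For Aire-/- over Aire+/+ under anti-PD1, a dendritic marker limit of 4 UMIs gave -0.016 for Ccl2 and -1.62 for Ccl12. For anti-PD1 over isotype in Aire-/- mice, a C1q limit of 1 UMI gave 0.035 for Ccl7 and -0.38 for Ccl12. In that comparison Ccl12 had -0.52 at a dendritic marker limit of 4 UMIs and -0.36 with the top cell left out, since 1 cell held most of its UMIs. The cause of the other 5 was not tested.

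Counts of members past 2-fold moved in 19 of 124 settings. They use the size of the ratio alone, for the members with at least 50 UMIs in the main setting. In macrophages they went from 0 to 1 for Aire-/- over Aire+/+ under anti-PD1 (thinned to 5000 UMIs, top 1% of cells per gene left out) and under isotype (top 1% left out, Ccl8), and from 1 to 2 for anti-PD1 over isotype in Aire-/- mice (top 1% left out). In monocytes they went from 2 to 1 for Aire-/- over Aire+/+ under anti-PD1 (mean of per-cell CPM, Lyz2 limit of 20 UMIs, Ly6c2-high only), from 0 to 1 under isotype (C1q limit of 1 UMI) and from 2 to 1 for anti-PD1 over isotype in Aire+/+ mice (mean of per-cell CPM, thinned to 2000 UMIs, Lyz2 limit of 20 UMIs). In dendritic cells they went from 2 to 0 (C1q limit of 1 UMI) and 2 to 1 (marker limit of 4 UMIs) for Aire-/- over Aire+/+ under anti-PD1. Anti-PD1 over isotype gave 1 in place of 2 in Aire+/+ (mean of per-cell CPM, thinned to 2000 UMIs, top cell left out) and in Aire-/- mice (C1q limit of 1 UMI, marker limit of 4 UMIs, top cell left out). With the top cell left out, the count for Aire-/- over Aire+/+ in dendritic cells stayed the same, but Ccl6 came in and Ccl12 (anti-PD1) or Ccl7 (isotype) went out. The cause of these moves was not tested. The share of all genes past 2-fold was lower in 16 of 16 comparisons when at least 200 UMIs were asked for.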
